A study of Homo sapiens with 6 samples.

Results

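The knockdown of NRF3 was set side by side in 2 versions of one human colon cancer line, and the genes described here are those whose response differed between them. The quantity used is a difference of differences for each gene, taken on the log2 scale. The NRF3 siRNA minus control siRNA difference, called the siRNA difference below, was computed in HCT116-p53KO and in HCT116, and the value in HCT116-p53KO was subtracted from the value in HCT116. This line difference therefore runs HCT116 minus HCT116-p53KO, so a negative value means that the siRNA difference was lower in HCT116. It used 4 of the 6 arrays of the series and was computed for 14148 of 18417 genes, those whose log2 intensity reached 6 on 1 or more of these arrays.

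The groups were HCT116-p53KO cells with NRF3 siRNA, HCT116-p53KO cells with control siRNA, HCT116 cells with NRF3 siRNA and HCT116 cells with control siRNA. RNA was taken 48 h after transient transfection in each. HCT116-p53KO is described in the labels as a p53-deficient form of HCT116; the sources used here do not say whether it is 1 clone, nor give the siRNA sequences or their number. Each group had 1 array. A line difference therefore has no replicate check, every number below is a description of these 4 arrays, and so few arrays limit the precision of all of them.

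NRF3, encoded by NFE2L3, is a basic leucine zipper transcription factor of the cap'n'collar family, made as a protein of the endoplasmic reticulum membrane that is released to enter the nucleus. p53 is a stress-activated transcription factor. Its target CDKN1A inhibits cyclin-dependent kinases, which keeps RB-family proteins bound to the promoters of cell cycle genes. Genes of G2 and mitosis often carry a cell cycle homology region (CHR) and CCAAT boxes near the start of transcription, whereas genes of DNA replication are typical targets of E2F factors.

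The labels were checked first. NFE2L3 had a log2 intensity of 7.15 with NRF3 siRNA and 8.71 with control siRNA in HCT116-p53KO, against 6.62 with NRF3 siRNA and 8.97 with control siRNA in HCT116. It was lower on both NRF3 siRNA arrays, with siRNA differences of -1.55 in HCT116-p53KO and -2.35 in HCT116, and the ratio of these was 1.51. The depth of knockdown was thus itself unequal between the lines. With the HCT116-p53KO differences multiplied by this ratio, the median line difference was -0.56 for the G2 and mitosis list, -0.51 for DNA replication and E2F, 0.14 for direct p53 targets and 0.57 for NF-kappaB targets, beside -0.60, -0.41, 0.20 and 0.38 as measured. Of the relatives, NFE2L1 (NRF1) was higher with NRF3 siRNA by 0.51 in HCT116-p53KO and 0.83 in HCT116, and NFE2L2 (NRF2) was lower by 0.50 and 0.63. The median direct p53 target was at -0.36 in HCT116-p53KO minus HCT116 with control siRNA, where the median of all genes was 0.00. The gene of p53 itself is not analysed here.

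Colon epithelial markers were present on all arrays: 8 of 12 had a level of 6 or more on all 4, among them EPCAM at 10.91 to 11.42 and CDX2 at 8.39 to 8.69, whereas KRT20, VIL1 and CDH17 stayed under 6 on all 4. Of 8 fibroblast markers 4 were at 6 or more on all 4 arrays, and of 5 leukocyte and 5 endothelial markers 0 were. These 4 fibroblast markers were COL1A1, COL1A2, COL3A1 and PDGFRB, between 6.24 and 8.03, whereas DCN and LUM lay between 2.87 and 4.32. The leukocyte marker PTPRC lay between 3.26 and 3.80. CD14, also a leukocyte marker, had 5.79 with NRF3 siRNA and 6.26 with control siRNA in HCT116-p53KO, against 6.51 and 6.06 in HCT116. Summed linear intensity of the fibroblast list was 621 and 628 with NRF3 and control siRNA in HCT116-p53KO, and 717 and 633 in HCT116. For the leukocyte list the sums were 180 and 213 in HCT116-p53KO, and 248 and 207 in HCT116. For the endothelial list they were 214 and 214 in HCT116-p53KO, and 236 and 213 in HCT116. These 3 sums were highest on the HCT116 NRF3 siRNA array. The colon epithelium list had sums of 13424 and 18161 in HCT116-p53KO, and 17700.5 and 24405 in HCT116, lower with NRF3 siRNA in each line. Its brightest member, the keratin KRT8, had 12.37 with NRF3 siRNA and 13.10 with control siRNA in HCT116-p53KO, against 13.004 and 13.514 in HCT116.

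The promoters shown here carry the motifs typical of each of the 2 cell cycle lists with large line differences. For G2 and mitosis, HMMR and KIF20B are printed, and for DNA replication, RFC4 and CDC7. Each is 250 bases before to 50 after the gene's start, 5′ to 3′ on the gene's strand, from RefSeq (GRCh38.p14). Capitals mark matches on either strand to TTTGAA (CHR) or CCAAT in the first pair, and to the E2F motifs TTCCCGC or TTGGCGC in the second pair; a CCAAT can overlap its own reverse complement ATTGG, as once in HMMR. The windows are HMMR chr5:163460382-163460681 (+), KIF20B chr10:89701340-89701639 (+), RFC4 chr3:186806433-186806732 (-) and CDC7 chr1:91500601-91500900 (+).
HMMR: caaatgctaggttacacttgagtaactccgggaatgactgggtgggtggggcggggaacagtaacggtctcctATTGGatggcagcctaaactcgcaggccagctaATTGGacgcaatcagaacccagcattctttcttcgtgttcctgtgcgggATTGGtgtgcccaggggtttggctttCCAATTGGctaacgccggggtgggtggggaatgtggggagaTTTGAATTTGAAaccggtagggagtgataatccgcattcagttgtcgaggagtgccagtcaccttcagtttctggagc
KIF20B: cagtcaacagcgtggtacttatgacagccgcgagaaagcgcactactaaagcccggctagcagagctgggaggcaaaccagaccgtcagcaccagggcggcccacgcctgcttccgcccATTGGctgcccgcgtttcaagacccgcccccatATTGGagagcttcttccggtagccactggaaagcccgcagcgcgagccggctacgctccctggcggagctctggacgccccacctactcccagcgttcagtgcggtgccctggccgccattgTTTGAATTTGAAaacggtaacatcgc
RFC4: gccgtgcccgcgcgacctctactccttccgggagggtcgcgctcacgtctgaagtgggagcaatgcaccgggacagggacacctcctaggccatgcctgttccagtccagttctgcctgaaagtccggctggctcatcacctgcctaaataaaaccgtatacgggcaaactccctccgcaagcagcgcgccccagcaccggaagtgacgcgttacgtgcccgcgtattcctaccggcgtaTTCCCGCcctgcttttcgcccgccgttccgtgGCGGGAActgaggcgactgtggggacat
CDC7: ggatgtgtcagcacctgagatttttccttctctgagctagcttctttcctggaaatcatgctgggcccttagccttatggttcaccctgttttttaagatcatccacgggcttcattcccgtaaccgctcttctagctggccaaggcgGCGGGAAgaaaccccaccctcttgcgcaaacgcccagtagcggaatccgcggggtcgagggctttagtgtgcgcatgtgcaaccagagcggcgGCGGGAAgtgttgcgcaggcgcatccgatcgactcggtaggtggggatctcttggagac

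A promoter in the RefSeq table was found for 47 of 56 G2 and mitosis genes and for 42 of 48 DNA replication and E2F genes. TTTGAA was in 63.8% of the 47 and in 2.38% of the 42, against 9.60% of 11095 expressed genes and 15.4% of all 27305 promoters of the same 300 bases. CCAAT was in 78.7% of the 47 and 54.8% of the 42, against 35.6% of expressed genes and 35.7% of all promoters. An E2F motif was in 17.02% of the 47 and 69.0% of the 42, against 14.1% of expressed genes and 9.33% of all promoters. These matches describe the windows only and are no evidence of a bound factor.

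Across all 14148 genes the line difference had a median of -0.04 and an SD of 0.32, with its 5th and 95th percentiles at -0.56 and 0.49. It was negative for 7816 genes and positive for 6331. The SD of the siRNA difference was 0.30 in HCT116-p53KO and 0.35 in HCT116. The siRNA difference had opposite signs in the 2 lines for 38.8% of genes. At 2-fold or more, 54 genes (0.382% of all) had a negative line difference and 34 (0.24%) a positive one, a split that became 75 and 23 after loess correction. With no filter on level there were 64 negative and 72 positive genes, so the negative excess did not hold there. With the HCT116-p53KO differences scaled by the NFE2L3 ratio there were 164 and 99. At 1.5-fold or more the counts were 603 (4.26%) negative and 369 (2.61%) positive. Within the lines, 502 genes (3.55%) were higher and 332 (2.35%) lower after NRF3 siRNA by 1.5-fold or more in HCT116-p53KO. In HCT116 the counts were 382 (2.7%) higher and 850 (6.01%) lower, so the lower genes of HCT116 outnumbered those of HCT116-p53KO.

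**Figure D1:**
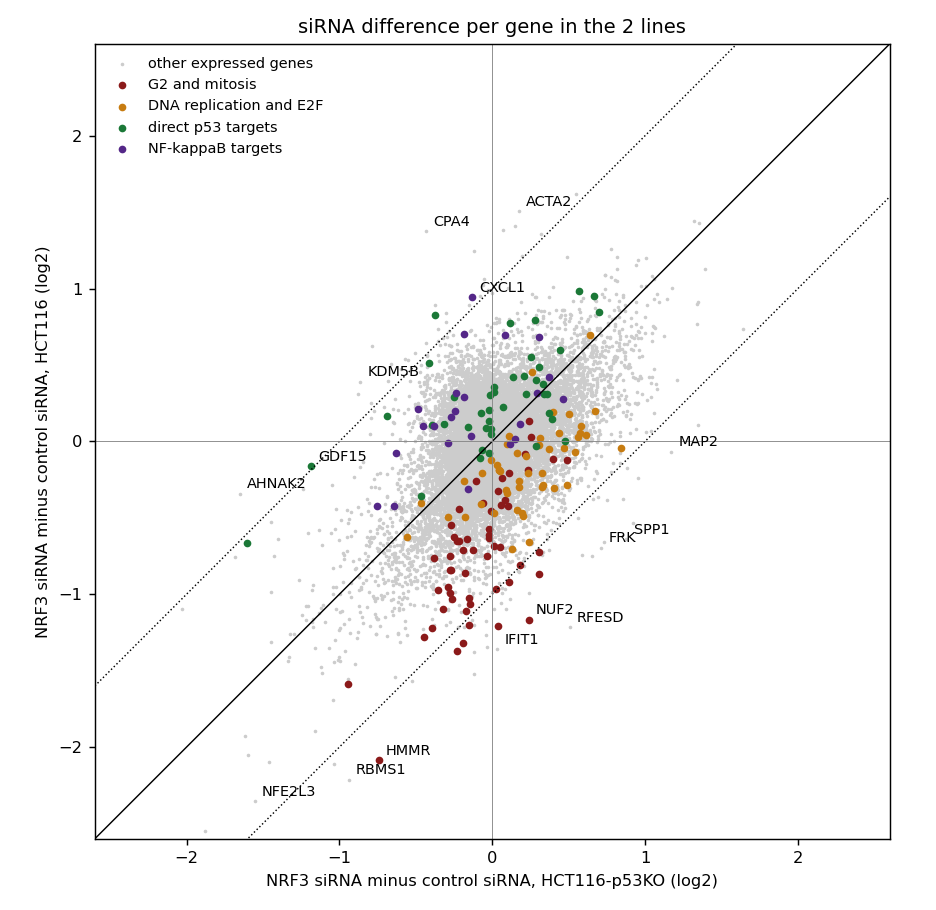
Each grey point is 1 of the 14148 genes, with its siRNA difference in HCT116-p53KO on the x axis and in HCT116 on the y axis (both log2); coloured points are members of 4 gene lists. The solid diagonal marks equal differences and the dotted lines a 2-fold line difference; the G2 and mitosis genes lie below the diagonal, all 56 of them.

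Among the 88 genes past 2-fold, the siRNA difference was larger in size in HCT116 for 64 and in HCT116-p53KO for 24. It had opposite signs in 63, against 38.8% of all genes, but choosing genes by a large line difference itself favours opposite signs. In 38 the siRNA difference was under 0.25 in size in HCT116-p53KO, and in 5 it was under 0.25 in HCT116. Shares over all genes were not counted for these sizes, so no excess over genes in general can be read from them. The SD over all genes was wider in HCT116 (0.35 against 0.30). For 45 of the 88 the HCT116 NRF3 siRNA array stood apart, meaning that the other 3 arrays spanned at most 50% of the 4-array range, a share of 51.1% against 23.9% of all expressed genes. With the HCT116-p53KO differences scaled by the NFE2L3 ratio the share was 21.7% of the genes past 2-fold. As measured, the HCT116-p53KO NRF3 siRNA array stood apart for 10 (14.3% of all genes), the HCT116 control array for 7 (6.43%) and the HCT116-p53KO control array for 2 (6.26%). No array stood apart for 24 of the 88, against 49.1% of all genes. Choosing genes by a large line difference itself favours 1 array that stands apart. Of the 88 genes 34 were under 6 on at least 1 array, where the size of a difference is less certain. Just inside 2-fold lay C18orf54 at -1.001 and SIGLEC5 at 1.003, and just outside it ASPM at -0.99 and KLHL24 at 0.99.

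The direction of the line difference varied with the level of a gene. Its median was 0.23 for 539 genes with a mean level under 6 and 0.14 for 2995 genes between 6 and 7. It was -0.00 for 3174 genes between 7 and 8, -0.12 for 3205 between 8 and 9, -0.13 for 2254 between 9 and 10 and -0.10 for 1981 at 10 or more. Positive line differences of 1.5-fold or more made up 13.5% of genes under 6 and 0.454% of genes at 10 or more. Negative ones of that size made up 6.86% and 1.51%. Genes with a mean level under 6 entered only by reaching 6 on 1 or more arrays, which itself favours large differences. The 4269 genes under 6 on all 4 arrays, which entered only the setting with no filter on level, had a median of 0.13. With loess correction on level, the list medians were -0.49 for G2 and mitosis, -0.31 for DNA replication and E2F, 0.28 for direct p53 targets and 0.29 for NF-kappaB targets. The part of the trend in the values of single genes was not tested. The median mean level was 9.41 for G2 and mitosis, 9.80 for DNA replication and E2F, 8.98 for direct p53 targets and 7.81 for NF-kappaB targets.

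Genes of G2 and mitosis had the median line difference furthest from 0 of all 34 lists. All 56 had a negative line difference, against 7816 of all 14148 genes. Their median was -0.60 where all expressed genes had -0.04 and genes of a like level (9 to 10) had -0.13. The median siRNA difference was -0.12 in HCT116-p53KO and -0.72 in HCT116. A line difference of at least 1.5-fold was reached by 30 members (53.6%, against 4.26% of all genes), each negative. Of these 9 passed 2-fold, where 0.382% of all genes were at least 2-fold negative. At least 1.5-fold lower after NRF3 siRNA were 2 members in HCT116-p53KO, where 2.35% of all genes were, and 38 in HCT116, where 6.01% were. The HCT116 NRF3 siRNA array was the lowest of the 4 for 54 of 56, against 31.7% of all genes. In a bulk sample fewer cells in G2 and mitosis and less RNA of these genes per cell cannot be told apart.

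With control siRNA the list median was 0.02 in HCT116-p53KO minus HCT116, with single members from -0.42 for HMMR to 0.62 for PLK4. With NRF3 siRNA the same median was 0.70. Division of the list into roles was made after the values were seen. By role, the median line difference was -0.93 for 8 kinesins, -0.67 for 12 spindle and cytokinesis factors and -0.63 for 8 genes of chromosome structure, cohesion and anaphase. It was -0.59 for 13 genes of the kinetochore and spindle checkpoint and -0.47 for 15 cyclins, kinases and their regulators. No member of the last role passed 2-fold, where 0.382% of all genes were at least 2-fold negative.

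In the kinetochore group, NUF2, a subunit of the NDC80 complex that holds microtubules, had 8.68 with NRF3 siRNA and 8.44 with control siRNA in HCT116-p53KO, against 7.43 and 8.60 in HCT116. Only the HCT116 NRF3 siRNA array was low, and the line difference was -1.41. Its partner NDC80 had 9.06 and 8.75 in HCT116-p53KO, against 8.08 and 8.81 in HCT116, a line difference of -1.03. CENPE, the kinetochore kinesin that moves chromosomes to the spindle equator, had 7.45 with NRF3 siRNA and 7.41 with control siRNA in HCT116-p53KO, against 6.14 and 7.35 in HCT116. Again 3 arrays were alike and the HCT116 NRF3 siRNA array was low (-1.25). TTK, the checkpoint kinase MPS1, was at -1.04 and KNL1, the kinetochore scaffold, at -0.99. At the other end SPC24 was at -0.29 and BUB3 at -0.32.

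Among kinesins, KIF20B, a motor of late cytokinesis, had a siRNA difference of 0.30 in HCT116-p53KO and -0.87 in HCT116. KIF14, another cytokinesis motor, had -0.19 and -1.32, and KIF18A, which damps chromosome movements at the spindle, had 0.11 and -0.92. KIF11, the motor that pushes spindle poles apart, had -0.17 in HCT116-p53KO and -1.11 in HCT116. Each of these 4 was lowest on the HCT116 NRF3 siRNA array. HMMR, a spindle protein and hyaluronan receptor, had 7.19 with NRF3 siRNA and 7.93 with control siRNA in HCT116-p53KO, against 6.27 and 8.35 in HCT116. Here both siRNA differences were negative, at -0.74 and -2.09, and the lines differed in size rather than in sign. ANLN, which builds the cytokinetic ring, and ECT2, which activates RHOA there, were alike in this respect, with -0.45 and -0.40 in HCT116-p53KO and -1.28 and -1.22 in HCT116.

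SGO2, which shields centromeric cohesin, had a siRNA difference of -0.23 in HCT116-p53KO and -1.37 in HCT116. OIP5, which helps load CENPA at centromeres, had -0.95 and -1.59, and TOP2A, the topoisomerase that untangles chromosomes, had 0.01 and -0.69. CDK1, the kinase that drives entry into mitosis, had -0.21 in HCT116-p53KO and -0.44 in HCT116, CCNB1 had -0.27 and -0.75, and FOXM1, a transcription factor of G2 genes, had -0.13 and -0.71. CCNB2 was the member nearest to 0, at 0.24 in HCT116-p53KO and 0.14 in HCT116. BIRC5, the survivin subunit of the chromosomal passenger complex, had 0.25 and 0.03.

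**Figure D2:**
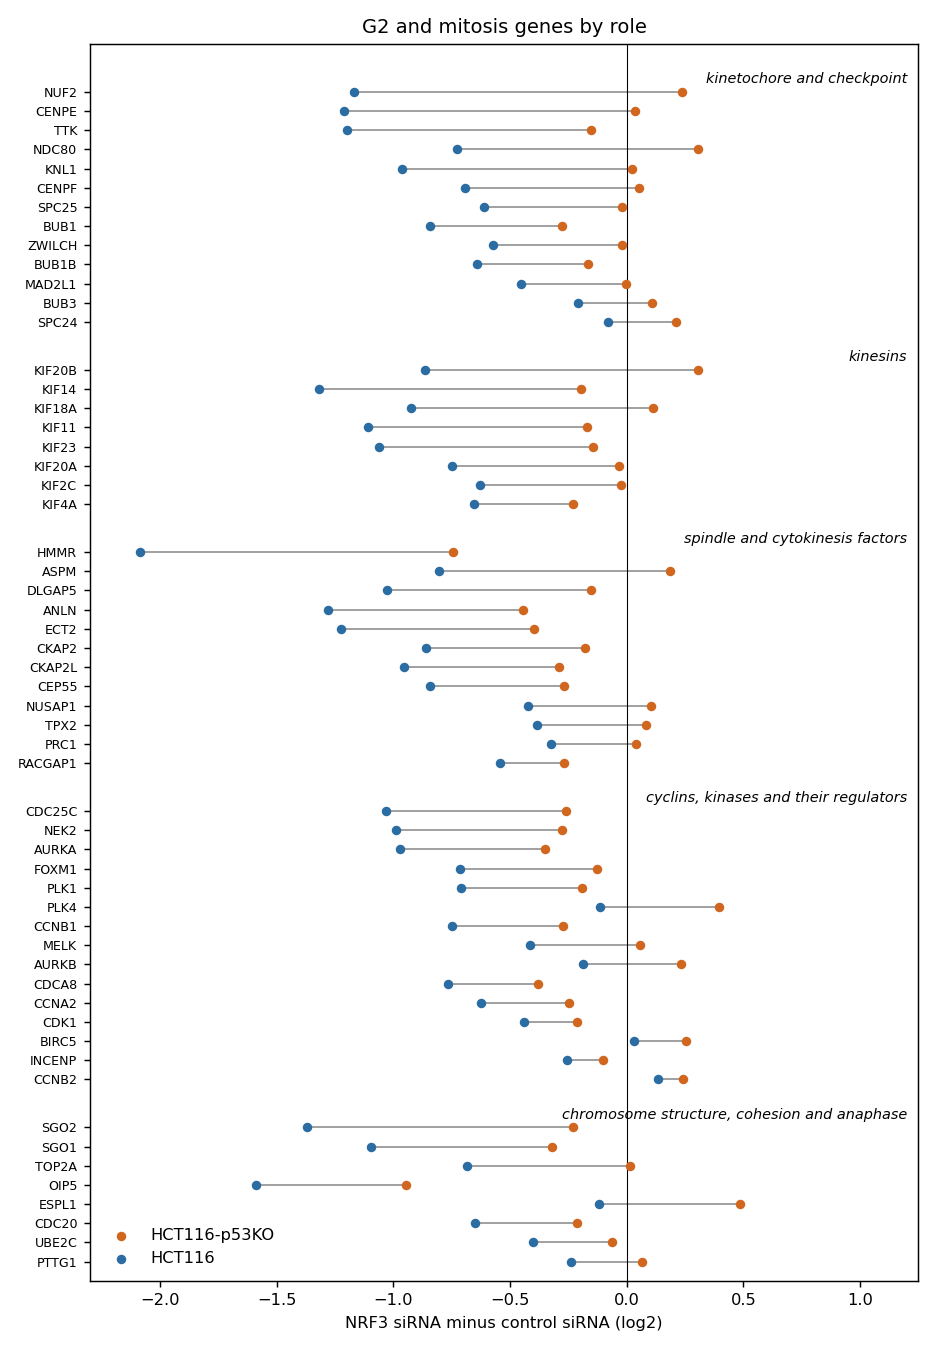
Each row is 1 of the 56 G2 and mitosis genes, grouped by role, with its siRNA difference (log2, x axis) in HCT116-p53KO (orange) and HCT116 (blue). The blue point is left of the orange one in every row, by 0.10 for CCNB2 up to 1.41 for NUF2.

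Within the list, the 30 genes with a TTTGAA match in the promoter had a median line difference of -0.64 and the 17 without had -0.61. For CCAAT, the 37 with a match had -0.59 and the 10 without had -0.72. In the DNA replication and E2F list, the 29 with an E2F match had -0.34 and the 13 without had -0.43. Outside these 2 lists, 1034 expressed genes with a TTTGAA match had a median of -0.10. All 11095 with a promoter, members of both lists included, had -0.06. At least 1.5-fold negative were 8.51% of the 1034 and 4.46% of the 11095.

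Genes of DNA replication and E2F had opposite list medians in the 2 lines. The median siRNA difference of 48 members was 0.21 in HCT116-p53KO and -0.19 in HCT116. Opposite signs were found in 28 members, against 38.8% of all genes. The line difference was negative in 45 and positive in 3, with a median of -0.41, where 7816 of all 14148 genes were negative. At least 1.5-fold negative were 11 (22.9%, against 4.26% of all genes) and 0 were at least 1.5-fold positive, against 2.61%. None reached 2-fold, where 0.382% of all genes were at least 2-fold negative and 0.24% positive. The HCT116 NRF3 siRNA array was the lowest for 35, against 31.7% of all genes. Both lines contributed: 40 members were higher with NRF3 siRNA in HCT116-p53KO (7088 of all genes) and 36 lower in HCT116 (6850 of all genes). By 1.5-fold or more, 4 were higher in HCT116-p53KO (3.55% of all genes) and 3 lower in HCT116 (6.01%).

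RFC4, a subunit of the clamp loader, had 11.25 with NRF3 siRNA and 11.01 with control siRNA in HCT116-p53KO, against 10.39 and 11.05 in HCT116. The HCT116 NRF3 siRNA array was low and the other 3 were within 0.24 of each other, giving a line difference of -0.90. CDC7, the kinase that fires replication origins, had 8.14 with NRF3 siRNA and 7.29 with control siRNA in HCT116-p53KO, against 7.06 and 7.11 in HCT116. In this gene, as in CDC45, RFC3 and POLE, it was the HCT116-p53KO NRF3 siRNA array that was high. The line difference of CDC7 was -0.89. GINS2, part of the replicative helicase, had siRNA differences of 0.40 and -0.30, and ORC6, of the origin recognition complex, had 0.33 and -0.30. The 3 positive members were RRM2, the small subunit of ribonucleotide reductase, at 0.19 and the cyclins CCNE1 and CCNE2, each at 0.06. CLSPN, the checkpoint adaptor claspin, had -0.83 on the probe set used and -0.47 on its other one.

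Replication-dependent histone genes, which are transcribed in S phase, had a median line difference of -0.39 over 37 expressed members of 45 measured. Their median siRNA difference was 0.01 in HCT116-p53KO and -0.39 in HCT116. At least 1.5-fold negative were 10 (27.0%, against 4.26% of all genes), and 31 of 37 were lowest on the HCT116 NRF3 siRNA array, against 31.7%. H4C4 had 10.54 with NRF3 siRNA and 10.50 with control siRNA in HCT116-p53KO, against 9.73 and 10.59 in HCT116, a line difference of -0.89. H2BC14, one of the brightest, had 13.88 and 13.79 in HCT116-p53KO, against 12.93 and 13.62 in HCT116. Histone copies are near-identical, so signal may be shared between them.

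The 33 expressed DNA repair genes had a median siRNA difference of 0.17 in HCT116-p53KO and -0.18 in HCT116. The line difference was negative in 28 of them, against 7816 of all 14148 genes. FANCM, the translocase of the Fanconi anaemia pathway, had 7.28 with NRF3 siRNA and 7.10 with control siRNA in HCT116-p53KO, against 6.21 and 7.06 in HCT116 (line difference -1.03). NBN, of the complex that senses double-strand breaks, had siRNA differences of 0.57 in HCT116-p53KO and -0.24 in HCT116.

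Direct p53 targets mostly had line differences of the opposite sign. Of 42 expressed members 34 had a positive line difference, against 6331 of all 14148 genes, and the list median was 0.20. The median siRNA difference was 0.01 in HCT116-p53KO and 0.26 in HCT116. At least 1.5-fold positive were 6 (14.3%, against 2.61% of all genes) and 0 were at least 1.5-fold negative, against 4.26%. Levels of the list were lower in HCT116-p53KO than in HCT116 by a median of 0.55 with NRF3 siRNA and 0.36 with control siRNA.

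CDKN1A, the p21 inhibitor of cyclin-dependent kinases, had 8.07 with NRF3 siRNA and 8.76 with control siRNA in HCT116-p53KO, against 9.98 and 9.82 in HCT116. It was lower with NRF3 siRNA in HCT116-p53KO (-0.69) and at 0.16 in HCT116. GDF15, a secreted stress cytokine, had 8.53 with NRF3 siRNA and 9.72 with control siRNA in HCT116-p53KO, against 11.91 and 12.07 in HCT116. BBC3, the pro-apoptotic BH3 protein PUMA, had 7.48 and 7.90 in HCT116-p53KO, against 8.35 and 7.83 in HCT116, so its siRNA difference had opposite signs (-0.41 and 0.52). These line differences were 0.85 for CDKN1A, 1.02 for GDF15 and 0.93 for BBC3, and for CDKN1A and GDF15 the larger siRNA difference was the negative one in HCT116-p53KO.

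Some p53 targets, SESN1, XPC and TP53I3 among them, were higher with NRF3 siRNA in both lines and by more in HCT116. SESN1, a regulator of mTORC1, had 0.28 in HCT116-p53KO and 0.79 in HCT116. XPC, which recognises damaged DNA, had 0.57 and 0.99, and TP53I3, a quinone oxidoreductase, had 0.12 and 0.77. TP53INP1 was lower in both, at -1.61 and -0.67, with 1 array under 6. MDM2, the ubiquitin ligase for p53, was alike in both, at -0.06 in HCT116-p53KO and -0.05 in HCT116. The member furthest on the negative side was KITLG, the ligand of KIT, at 0.48 and 0.00. ABCA12, a lipid transporter, had the largest line difference of the list at 1.21, with 2 arrays under 6.

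NF-kappaB targets had list medians of opposite sign, -0.19 in HCT116-p53KO and 0.16 in HCT116, over 23 expressed members of 30 measured. The line difference was positive in 18, against 6331 of all 14148 genes, and its median over the list was 0.38. At least 1.5-fold positive were 4 (17.4%, against 2.61% of all genes). The chemokine CXCL1 had 6.61 with NRF3 siRNA and 6.74 with control siRNA in HCT116-p53KO, against 7.89 and 6.95 in HCT116. The HCT116 NRF3 siRNA array was the high one, and the line difference was 1.07. CXCL8 had siRNA differences of -0.19 and 0.70, with 1 array under 6. RELB, a subunit of NF-kappaB, had 0.08 and 0.70, and its inhibitor NFKBIA had -0.45 and 0.10. TNFAIP3, the deubiquitinase A20, was lower in HCT116-p53KO (-0.63) and at -0.08 in HCT116. CFLAR, an inhibitor of caspase 8, had a line difference of 0.70 on the probe set used and -0.33 on another, so it has no settled direction.

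**Figure D3:**
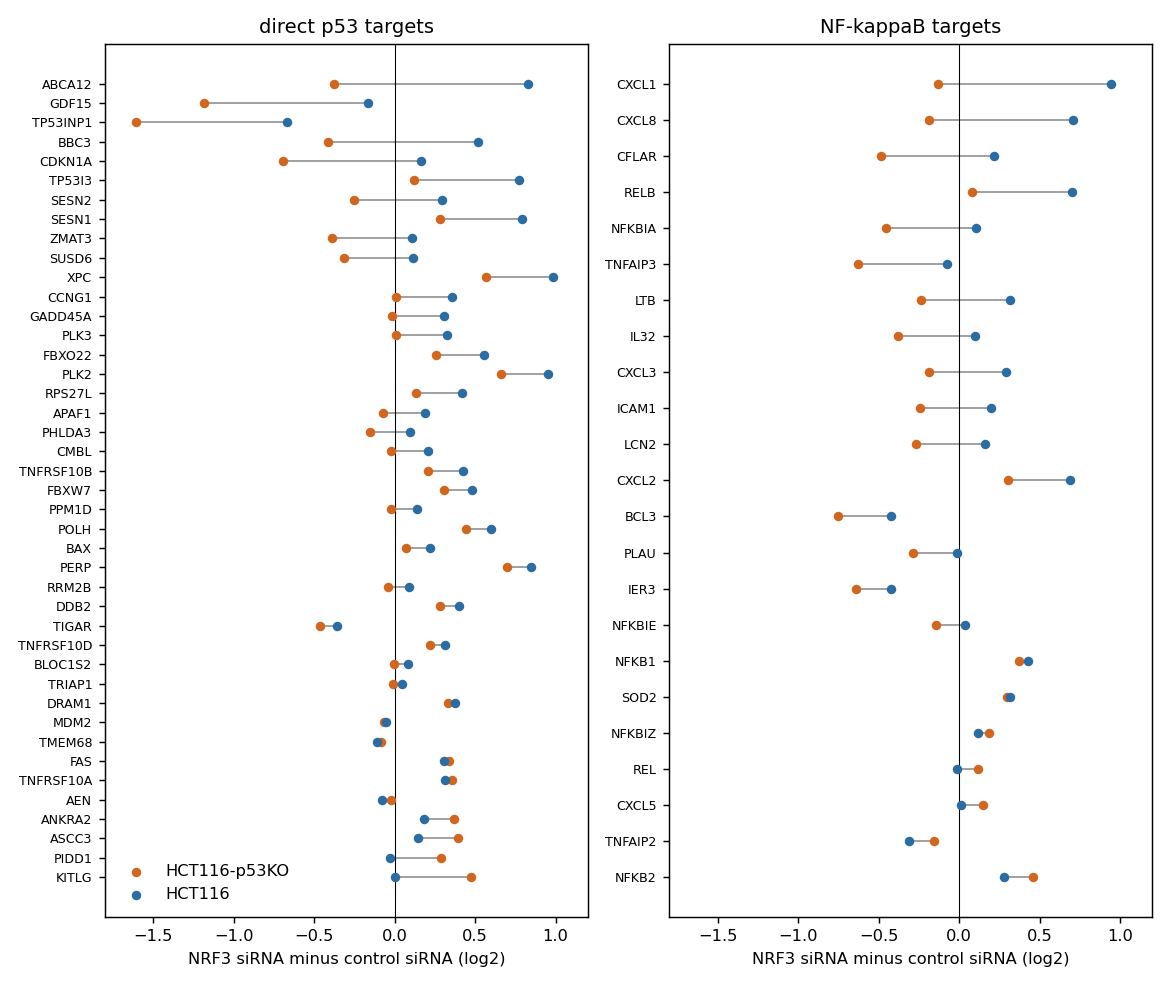
Each row is 1 expressed direct p53 target (left panel) or NF-kappaB target (right panel), with its siRNA difference (log2, x axis) in HCT116-p53KO (orange) and HCT116 (blue), sorted by line difference. The blue point is to the right for 34 of 42 p53 targets and 18 of 23 NF-kappaB targets. Over all 14148 genes the line difference was positive in 6331.

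Signalling lists with positive medians held further genes of this kind. WNT targets had a median line difference of 0.31 over 21 genes and the immediate early and MAPK feedback list had 0.21 over 36. At least 1.5-fold positive were 2 WNT targets (9.52%) and 4 immediate early genes (11.1%), against 2.61% of all genes. At least 1.5-fold negative were 0 in either list, against 4.26%. DKK1, a secreted WNT inhibitor, had 13.27 with NRF3 siRNA and 13.27 with control siRNA in HCT116-p53KO, against 12.54 and 11.57 in HCT116 (line difference 0.97). EGR1, an immediate early transcription factor, had 10.57 and 10.72 in HCT116-p53KO, against 10.33 and 9.43 in HCT116 (1.04). In both genes the HCT116 control array was the low one. JUN, a subunit of AP-1 that both lists hold, was higher in both lines, by 0.49 in HCT116-p53KO and 1.21 in HCT116.

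The stress lists were mixed. CHAC1, a glutathione-degrading target of ATF4, had a siRNA difference of -0.80 in HCT116-p53KO and 0.25 in HCT116, and DDIT4, an inhibitor of mTORC1, had -0.65 and 0.05. The ATF4 and ER stress list had a median line difference of 0.15 over 33 genes. Among antioxidant genes, whose median was 0.08, ABCC3, an efflux pump, had 0.102 and 1.003, HMOX1, heme oxygenase, had -0.23 and 0.49, and TXNRD1, thioredoxin reductase, had -0.90 and -0.23. Heat shock chaperones had a median of -0.26, led by CHORDC1, an HSP90 cochaperone, at -0.28 in HCT116-p53KO and -1.18 in HCT116. HSPA4L, a chaperone of the HSP110 family, had 0.74 and -0.02.

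Interferon-stimulated genes had 7 of 28 expressed members at least 1.5-fold negative (25.0%, against 4.26% of all genes). Among these 7, IFIT1 and IFIH1 reached 6 only on the HCT116 control array, and SAMD9 only on the HCT116 arrays. They passed the level filter through arrays where they were high, which itself favours a negative value for IFIT1 and IFIH1. At least 1.5-fold positive was 1, against 2.61% of all genes, and the median line difference was -0.20. USP18, which trims ISG15 from proteins, had 8.55 with NRF3 siRNA and 7.65 with control siRNA in HCT116-p53KO, against 8.13 and 8.07 in HCT116. OAS3, a sensor of double-stranded RNA, had siRNA differences of 0.29 in HCT116-p53KO and -0.45 in HCT116. IFITM1, which blocks virus entry, was the positive one, with -1.45 in HCT116-p53KO and -0.53 in HCT116. IFIT1 had a larger line difference of -1.39, with 3 arrays under 6, and its locus overlaps LIPA.

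Mitochondrial lists had small negative medians, -0.21 for protein import over 23 genes and -0.18 for the respiratory chain over 48. TOMM20, the receptor of the outer membrane, was lower in both lines, by 1.16 in HCT116-p53KO and 1.89 in HCT116. NDUFB6, a complex I subunit, had 8.50 with NRF3 siRNA and 8.13 with control siRNA in HCT116-p53KO, against 7.51 and 8.15 in HCT116. Its line difference of -0.998 was just short of 2-fold. In the cholesterol synthesis list (median -0.23 over 18 genes), both line medians were negative, -0.21 in HCT116-p53KO and -0.44 in HCT116. EBP, a sterol isomerase, had 0.15 and -0.53 there. Of the 34 lists, 13 had a median of at least 0.2 in size and 11 had one within 0.1 of 0.

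**Figure D4:**
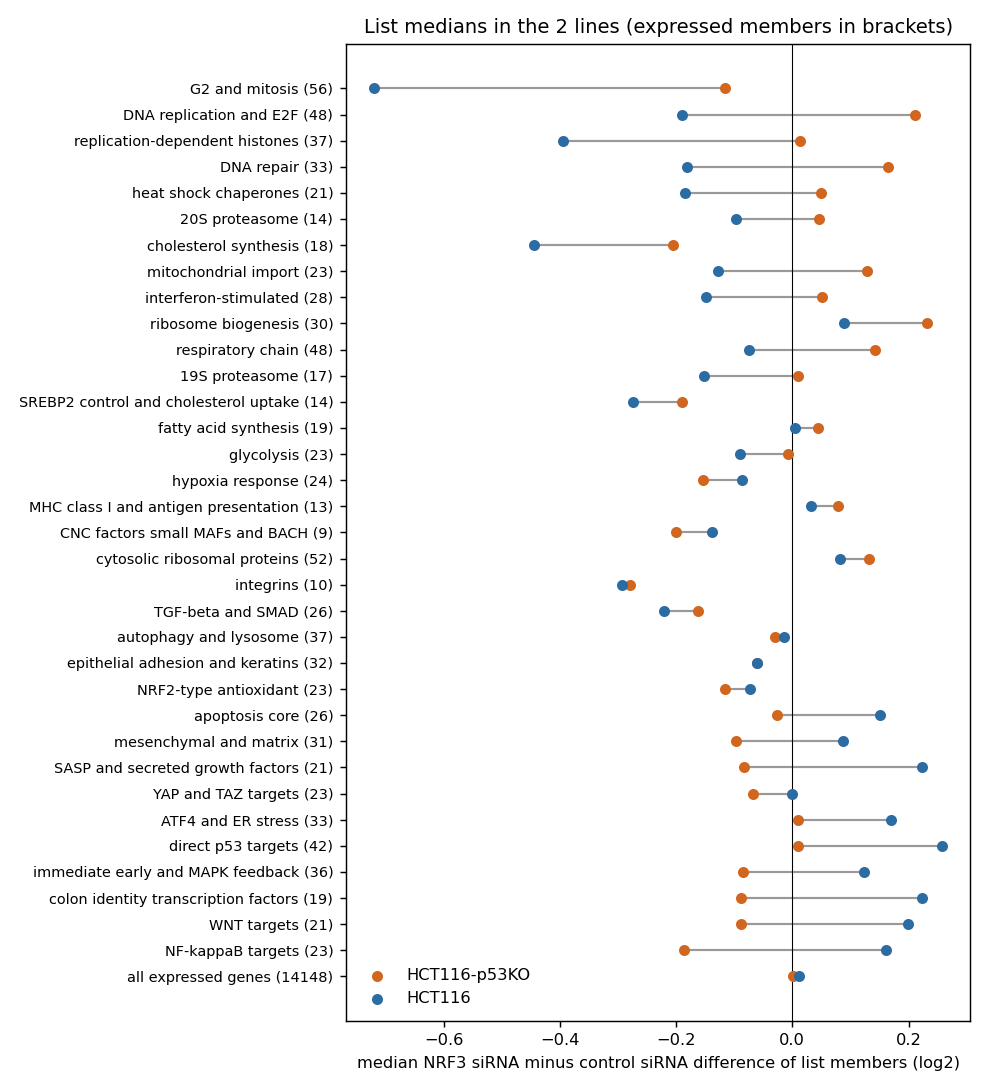
Each row is 1 of 34 gene lists, with all expressed genes last, and shows the median siRNA difference (log2, x axis) of its expressed members in HCT116-p53KO (orange) and HCT116 (blue); the number of members is in brackets. The widest gap is that of G2 and mitosis, at -0.12 and -0.72.

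Few genes reversed at a clear size. At least 1.5-fold higher in HCT116-p53KO and at least 1.5-fold lower in HCT116 were 5 genes (0.0353%), and the opposite held for 1 (0.00707%). SPP1, osteopontin, had 6.90 with NRF3 siRNA and 6.02 with control siRNA in HCT116-p53KO, against 6.33 and 6.97 in HCT116. THOC1, of the THO complex that couples transcription to mRNA export, had 8.65 and 8.07 in HCT116-p53KO, against 7.57 and 8.32 in HCT116, and its locus overlaps USP14. These were the only reversed genes at 6 or more on all 4 arrays. FRK, an epithelial tyrosine kinase, had 6.29 and 5.58 in HCT116-p53KO, against 6.86 and 7.55 in HCT116. NMI, an interferon-inducible partner of STAT proteins, had 5.59 and 4.94 in HCT116-p53KO, against 5.96 and 6.71 in HCT116. For these 2 genes, levels in HCT116-p53KO were the lower of the lines with either siRNA. C2orf66 was the fifth, and the gene of the opposite pattern was THUMPD3-AS1, whose sequence overlaps THUMPD3. Both had at least 1 array under 6.

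Among single genes with a negative line difference, RFESD, a Rieske domain protein, had the largest at -1.72, with 2 arrays under 6. RBMS1, an RNA-binding protein, was at -1.27 on the probe set used and 0.07 on another. THOC1, NUF2, HMMR and CENPE were among the largest of the genes at 6 or more on all arrays. LRRCC1, a centriole protein outside the mitosis list, had 7.33 with NRF3 siRNA and 7.09 with control siRNA in HCT116-p53KO, against 6.36 and 7.35 in HCT116. C5orf34 had 7.77 and 7.80 in HCT116-p53KO, against 5.997 and 7.340 in HCT116. SPARC, a matrix glycoprotein, had a siRNA difference of -0.20 in HCT116-p53KO and -1.33 in HCT116.

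A smaller set responded in HCT116-p53KO and hardly in HCT116. At least 2-fold in HCT116-p53KO and under 0.25 in HCT116 were 5 higher genes and 1 lower one. These were counted over the 14148 genes with 226 small RNAs left out. GASK1B, a Golgi-associated kinase, had 7.96 with NRF3 siRNA and 6.62 with control siRNA in HCT116-p53KO, against 5.37 and 5.27 in HCT116, where it was under 6. MAP2, a microtubule-associated protein best known from neurons, had 7.58 and 6.41 in HCT116-p53KO, against 6.76 and 6.82 in HCT116. For MAP2 the HCT116-p53KO NRF3 siRNA array was the high one, whereas for GASK1B each HCT116-p53KO array was above those of HCT116. ARG2, mitochondrial arginase, LYRM7, an assembly factor of complex III, and ZNF845 completed the higher genes, at 1.01, 1.04 and 1.06 in HCT116-p53KO and 0.06, 0.07 and 0.19 in HCT116. GDF15 was the lower one.

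The reverse set, at least 2-fold in HCT116 and under 0.25 in HCT116-p53KO, had 8 higher and 23 lower genes, counted over the same genes. ACTA2, smooth muscle actin, had 6.44 with NRF3 siRNA and 6.26 with control siRNA in HCT116-p53KO, against 8.56 and 7.06 in HCT116. Its locus overlaps FAS and ACTA2-AS1, whose line differences were -0.03 and 0.31. RGS6, a regulator of G protein signalling, had 5.97 and 5.90 in HCT116-p53KO, against 7.36 and 5.98 in HCT116. ARRDC4, an arrestin-like adaptor, had 6.35 and 6.40 in HCT116-p53KO, against 7.99 and 6.93 in HCT116. In all 3 genes the HCT116 NRF3 siRNA array was the high one.

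CPA4, a secreted carboxypeptidase, had the largest positive line difference of all expressed genes at 1.81. Its levels were 7.47 with NRF3 siRNA and 7.90 with control siRNA in HCT116-p53KO, against 9.06 and 7.68 in HCT116. KDM5B, a histone H3 lysine demethylase, had 8.33 and 9.19 in HCT116-p53KO, against 9.72 and 9.33 in HCT116. AHNAK2, a very large scaffold protein, had 6.84 and 8.49 in HCT116-p53KO, against 8.23 and 8.57 in HCT116, so that the HCT116-p53KO NRF3 siRNA array stood alone. EHF, an epithelial ETS factor, had 4.53 and 5.20 in HCT116-p53KO, under 6 with either siRNA, against 9.35 and 8.84 in HCT116. ITGA2, the collagen-binding integrin chain, was lower in both lines, by 1.68 in HCT116-p53KO and 0.76 in HCT116.

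**Figure D5:**
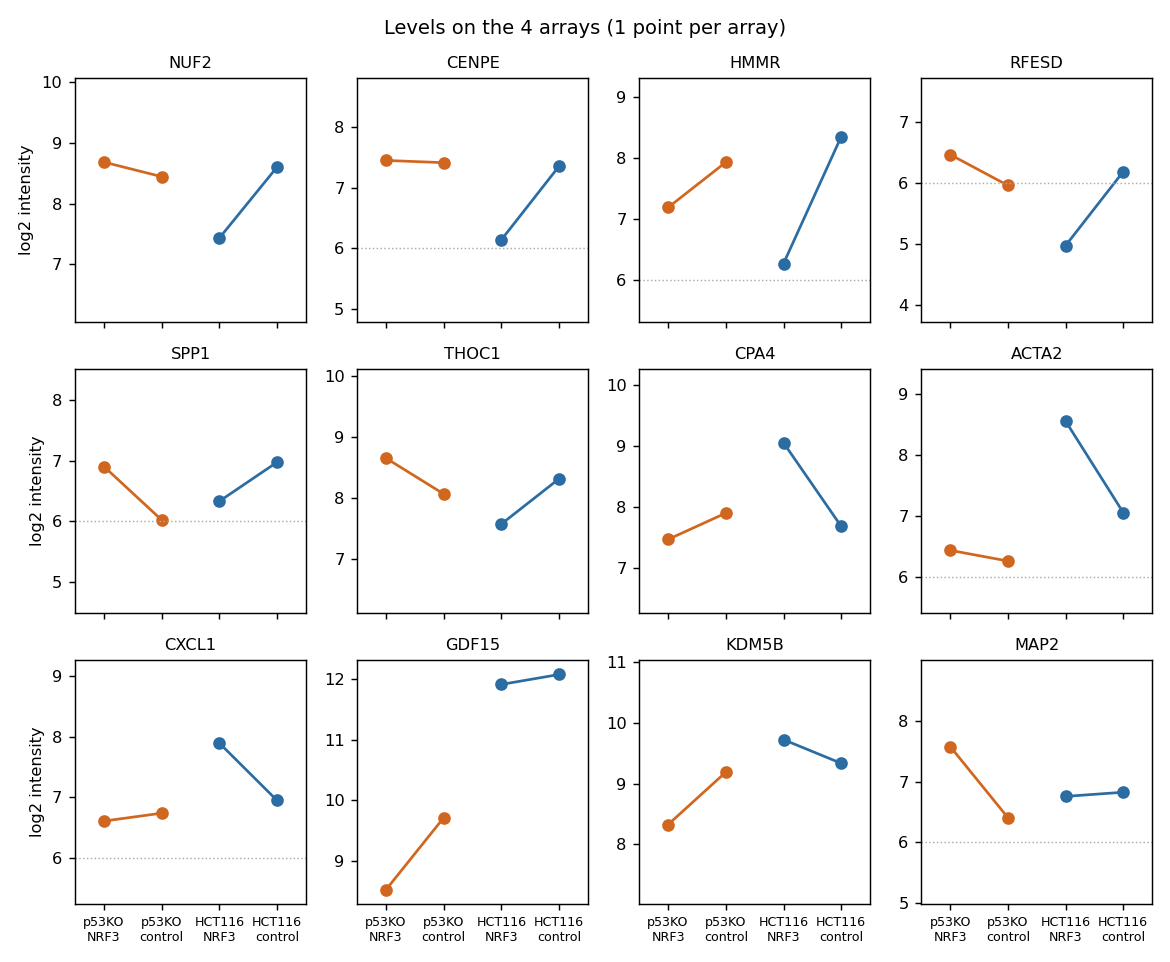
Log2 intensity (y axis, a range of 4 units in each panel) of 12 genes on the 4 arrays, 1 point per array, in the order HCT116-p53KO NRF3 siRNA, HCT116-p53KO control siRNA, HCT116 NRF3 siRNA and HCT116 control siRNA; lines join the arrays of 1 cell line and the dotted line marks 6. NUF2, CENPE and RFESD are low on the HCT116 NRF3 siRNA array, CPA4, ACTA2 and CXCL1 are high on it, and MAP2 is high on the HCT116-p53KO NRF3 siRNA array.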

How the data were processed

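Total RNA (100 ng) was biotin-labelled, per the labels' protocols, for Affymetrix whole-transcript arrays. The deposited table holds 33297 probe sets as log2 intensities, for which the submitters' processing notes name Affymetrix Expression Console and RMA. RMA corrects background, quantile-normalizes arrays and combines probes. The sources used here do not say which arrays were normalized with which. Array medians were 6.95 and 7.00 with NRF3 siRNA and 6.99 and 6.98 with control siRNA in HCT116-p53KO and HCT116. At most 2.36% of values were identical between arrays.

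Probe sets were named through the platform annotation: 19460 had 1 symbol, 1754 several and 12083 none listed. Of the first, the highest mean over 6 arrays was kept for the 769 genes with several probe sets. Differences of log2 values were taken for genes that reached 6 on 1 or more of the 4 arrays and counted at 2-fold and 1.5-fold; with 1 array per group no test was made and no p-value is given. Python 3.11.15, pandas 2.3.3, numpy 2.4.6, statsmodels 0.14.6 and matplotlib 3.10.9 were used, and the counting was tested on simulated data. Promoters (300 bases, first entry per gene) and gene overlaps came from RefSeq tables of GRCh38.p14.

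The genes, the 34 lists and the rules were chosen with earlier results of these data known; mitotic roles, motifs and level classes were chosen after values were seen. Named were NFE2L3, NFE2L1 and NFE2L2, the 15 largest line differences each way and the 10 largest at 6 or more on all arrays, genes reversed at 1.5-fold, the 5 largest each way confined to 1 line (2-fold against under 0.25), and up to 6 members of each list. List members singled out beside these were chosen after their values were seen. Small RNAs (2 past 2-fold) were not named and were left out of the counts of genes confined to 1 line. Alternatives were other filters (none, 7, or 6 on all 4 arrays), probe sets averaged within a gene, repeated quantile normalization, loess (span 0.4), scaling by the NFE2L3 ratio, other folds and list means.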

Additional observations from a re-analysis of the deposited data

Results flagged for a closer look

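A total of 6 genes had siRNA differences of at least 1.5-fold in opposite directions in the lines, with 1 array on each side, so the difference was not tested. The line difference was -1.52 for SPP1, -1.41 for FRK, -1.40 for NMI, -1.39 for C2orf66, -1.33 for THOC1 and 1.41 for THUMPD3-AS1.

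For 4 lists the median siRNA difference had opposite signs in the lines and was at least 0.1 in size in each line, also not tested. The median line difference was -0.41 for DNA replication and E2F, -0.29 for DNA repair, -0.21 for mitochondrial import and 0.38 for NF-kappaB targets.

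The H1299 arrays entered no comparison above. On them NFE2L3 was higher by 2.02 on the array with NRF3 plasmid than on the array with GFP plasmid.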

How the results depend on the processing

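The counts of 34 positive and 54 negative genes at 2-fold became 72 and 64 with no filter, 18 and 40 with a filter of 7, 17 and 37 with 6 on all 4 arrays, 33 and 52 with the mean of probe sets, 26 and 55 with repeated quantile normalization and 23 and 75 with loess. Scaling HCT116-p53KO by the NFE2L3 ratio gave 99 and 164, and a 1.5-fold threshold gave 369 and 603. Genes lower in HCT116-p53KO and higher in HCT116, 1 in the main setting, numbered 3 without a filter, 0 with a filter of 7, 0 with 6 on all arrays, 0 with loess, 3 with the NFE2L3 ratio and 52 at 0.322 (log2) in both lines. Genes of the opposite pattern, 5 in the main setting, numbered 2 with a filter of 7, 2 with 6 on all arrays and 56 at 0.322 (log2) in both lines.

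The median of G2 and mitosis was -0.49 and that of DNA replication and E2F -0.31 with loess, and the median of NF-kappaB targets was 0.57 with the NFE2L3 ratio. The share of genes past 2-fold for which the HCT116 NRF3 siRNA array stood apart was 51.1%, and 21.7% with the NFE2L3 ratio. Over all settings run, 250 of 272 list medians and 1472 of 1545 values of named genes moved by less than 0.1 and 0.25, and 0 list medians of at least 0.1 in size changed sign. The genes whose sign changed were NFE2L2 (0.13), MBTPS1 (-0.023) and LGMN (0.11), all under the NFE2L3 ratio, and this setting also held 68 of the 70 named genes that moved by over 0.25. The cause was not tested.

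No paired analysis was possible because the labels carry no replicate numbers and each group has 1 array. Leaving out an array leaves no line difference. With 1 array per group an array effect, a transfection effect and the condition cannot be told apart, and the unequal depth of knockdown cannot be told apart from the line.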

Other observations

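Some of the genes named above, chosen after their values were seen, were also read on the H1299 arrays, where NRF3 was expressed from a plasmid and which share no array with the 4 used above. SPP1 had 5.63 with NRF3 and 11.11 with GFP, a difference of -5.48. DKK1 had 7.76 with NRF3 and 5.33 with GFP. HMMR had 8.36 and 8.55, NUF2 had 8.12 and 8.03 and CENPE differed by -0.01. THOC1 had 8.67 with NRF3 and 8.17 with GFP. CPA4 (5.59 and 5.20), MAP2 (4.39 and 4.59) and FRK (4.20 and 4.71) were under 6 on both H1299 arrays. CHAC1 was higher with NRF3 by 1.42 and DDIT4 by 2.01. H1299 comes from lung and the design differs, so these values are given beside the others and were not compared with them.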
